A study of Danio rerio with 17 samples.

Results

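Zinc finger and BTB factor genes were followed in cranial neural crest cells of zebrafish embryos homozygous for a mutation in prdm3 or prdm16. The cells were sorted from pools of dissociated embryos at 48 hours post fertilization by the sox10:GFP reporter, which marks neural crest and some of its neighbours, so a library is a pool of animals and not 1 embryo. Genes were chosen by name, as those listed in either RNA table whose name begins with znf, zbtb, zfp, zfhx, zeb, zic, klf, sp, sall, tshz, ikzf, gata, egr, bcl11, patz, zc3h or zmy. Names in capitals, such as ZNF335 for prdm3 mutants and ZBTB26 for prdm16 mutants, were not matched. The rule found 105 of the 4169 genes listed, with 42 for prdm3 mutants, 66 for prdm16 mutants and 3 for both. The groups are prdm3-/- (3 libraries), prdm16-/- (replicates 1 and 2) and wildtype, all from sox10:GFP embryos. Replicate 3 of the prdm16 mutants was not analysed here, since the authors' prdm16 table has no column for it. Their prdm3 table has no column for wild type replicate 1. Wild type replicates 2 and 3 stand against prdm3 mutants and all 3 against prdm16 mutants, so the comparisons share wild type libraries. The column labels name wild type replicates 1 and 2 for prdm3 and replicate 3 for prdm16. Most wild types set against prdm16 mutants thus carry the name of the other gene. Each comparison holds wild types of both names, so the names go with genotype only in part. The part of the names in the differences was not tested. Beyond the names, nothing in the labels says how related the pools are, so p-values measure only the spread between these libraries.

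Zinc finger proteins hold a small loop of protein around a zinc ion by cysteines and histidines, and rows of such fingers read short stretches of DNA or RNA. Many act as repressors that recruit histone deacetylase complexes, and the PRDM proteins are themselves zinc finger proteins. BTB, the domain that the zbtb genes add to their fingers, pairs proteins with each other and with corepressors. Names in zfp36 and most in zc3h, though not zc3hc1, belong to a different finger type that binds mRNA. Names in zmynd belong to a finger that binds other proteins. In zebrafish the numbered znf genes include large families of similar copies, whose reads can be shared between genes. How such reads were assigned is not given in the sources used here, so values of those genes are uncertain.

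The tables hold selected genes only, which limits every count. A gene is in the prdm3 table where the authors' unadjusted p was below 0.05. It is in the prdm16 table where their q, the p adjusted over all genes tested, was below 0.05. The higher group mean of a listed gene was never below 0.996 FPKM for prdm3 mutants or 0.995 FPKM for prdm16 mutants. Members that missed these thresholds were not held, so being listed is itself the measured difference and gets no further test. Of 11242 genes tested, 13.5% were listed for prdm3 mutants (12.7% higher and 0.783% lower), and of 10623 genes tested, 28.1% for prdm16 mutants (0.734% higher and 27.4% lower). By current symbol, 45 of 472 zebrafish gene IDs that match the rule (9.53%) were in the prdm3 table and 71 (15.0%) in the prdm16 table. Of all 29201 gene IDs with a symbol, 5.09% and 9.97% were, but these shares count genes that were never tested. Levels are FPKM, fragments scaled to transcript length and library size, and read depth is unknown. The crest genes sox10, crestin and tfap2a and the prdm3 gene (mecom) were not listed in either table. The gene prdm16 was not listed for its own mutants but was listed in prdm3 mutants, at 72.2, 60.0 and 69.3 FPKM against 54.2 and 49.5 FPKM in wild type cells. No mutant library could thus be checked at the gene it was mutated in.

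In prdm3 mutant cells, 41 of the 42 listed members were higher than in wild type cells and 1, znf999, was lower. They include spalt and teashirt genes, zeb1a and zfhx3, the mRNA decay gene zfp36l1a and 31 znf genes. The higher members stood 1.23-fold to 3.84-fold above wild type, with a median of 1.80-fold, beside 1.75-fold over all listed higher genes. On the log2(FPKM + 1) scale the median difference of the members was 0.72, beside 0.62 over all 1520 listed genes. Higher genes made up 97.6% of the members and 94.2% of all listed genes, so the members' direction is close to that of the table. Mutant and wild type libraries do not overlap for any of the 42, as for all 1520 listed genes. In bulk RNA, more or fewer cells of a type and more or less RNA per cell cannot be told apart. Set against the median of all listed genes, 16 of the 41 higher members would lie on the lower side. None of the 42 passed q below 0.05 in the authors' deposited table, where their q was between 0.238 and 0.367 (0.0267% of all genes tested passed). Limma on the listed genes called 41 of the 42 at an unadjusted p below 0.05, beside 96.8% of all listed genes.

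**Figure D1:**
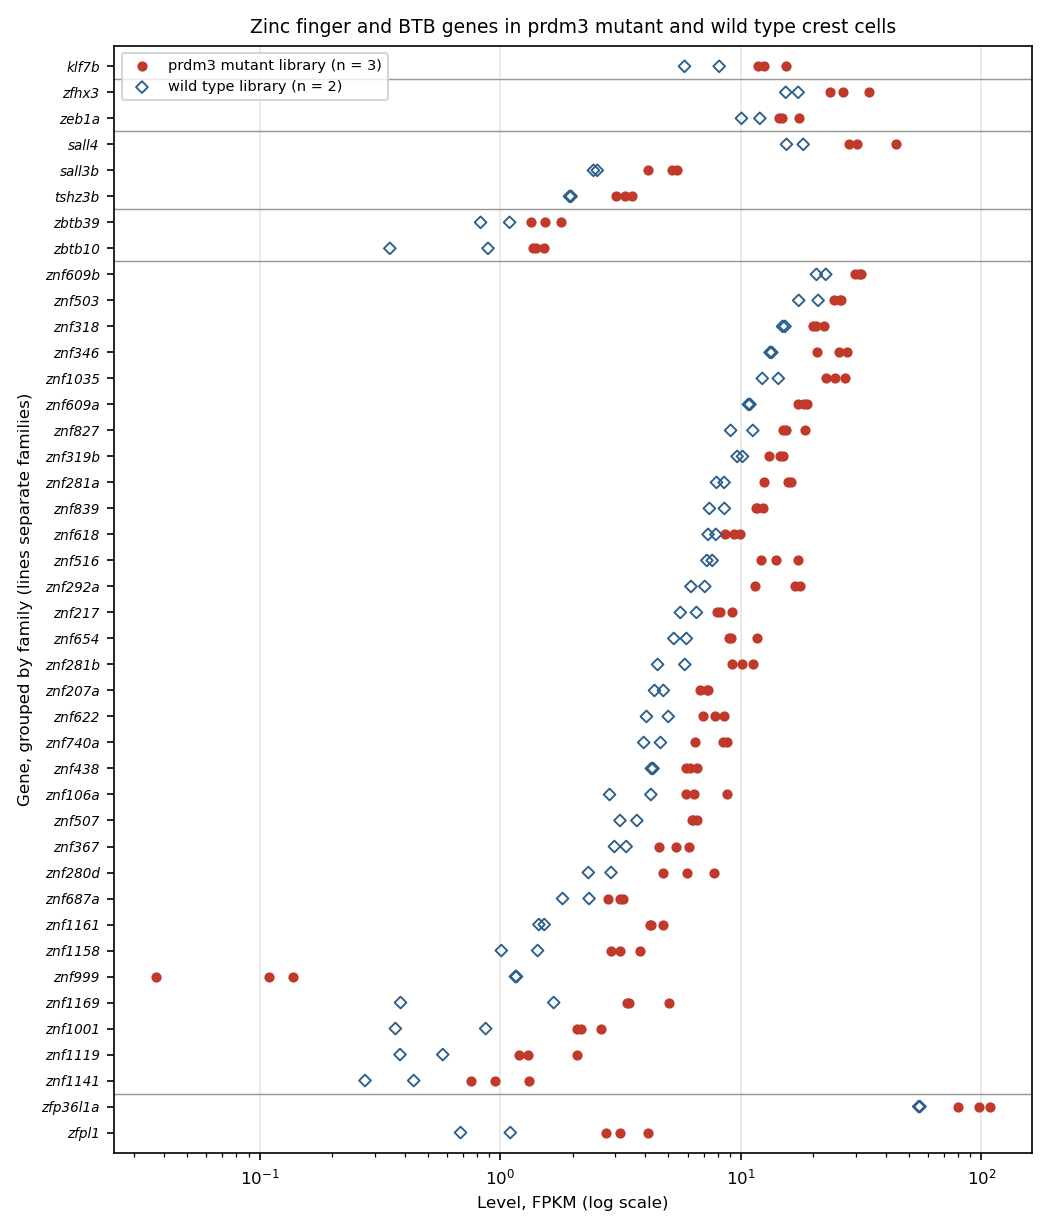
Level in FPKM, on a log scale, of the 42 zinc finger and BTB genes listed for prdm3 mutants, in each of 3 mutant (filled circles) and 2 wild type libraries (open diamonds). Mutant circles lie to the right of wild type diamonds for all genes but znf999, although 16 of the 41 higher genes differ by less than the median of all listed genes.

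Spalt and teashirt genes encode developmental repressors with widely spaced fingers. The gene sall4 (ENSDARG00000044485), whose mouse counterpart maintains pluripotent stem cells, stood at 30.3, 44.3 and 28.2 FPKM in prdm3 mutant cells against 18.2 and 15.5 FPKM in wild type cells. That is 2.04-fold, with a log2 difference of 0.96 ± 0.27 (SE), and the second mutant library lies well above the other mutants. The gene sall3b (ENSDARG00000057586) stood at 4.11, 5.17 and 5.41 FPKM in mutant cells against 2.53 and 2.44 FPKM in wild type cells (0.75 ± 0.13). The teashirt gene tshz3b (ENSDARG00000103361) stood at 3.02, 3.52 and 3.29 FPKM in mutant cells against 1.94 and 1.97 FPKM in wild type cells (0.53 ± 0.06). Of these 3, tshz3b alone falls below the median difference of all listed genes.

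Two-handed zinc finger and homeobox factors are large repressors, and ZEB1 is known in mammals for shutting off E-cadherin as epithelial cells become migratory. The gene zeb1a (ENSDARG00000016788) stood at 14.4, 17.4 and 14.8 FPKM in prdm3 mutant cells against 11.99 and 10.05 FPKM in wild type cells (log2 difference 0.46 ± 0.14). Without wild type replicate 3 limma gave an unadjusted p of 0.0886, from a fit with 1 wild type library that is assumed to vary like the mutants. The gene zfhx3 (ENSDARG00000103057) stood at 23.4, 26.6 and 34.1 FPKM in mutant cells against 15.4 and 17.3 FPKM in wild type cells (0.73 ± 0.21). Its mutant values spread more than those of zeb1a. A second gene, named zfhx3a by symbol but not by the table's own name, stood at 19.5, 25.2 and 22.5 FPKM in mutant cells against 10.9 and 14.6 FPKM in wild type cells. It is outside the 42 and was singled out after its values were seen.

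The Krüppel-like gene klf7b (ENSDARG00000043821), whose mouse counterpart acts in axon growth, stood at 11.7, 15.5 and 12.5 FPKM in prdm3 mutant cells against 5.83 and 8.12 FPKM in wild type cells (log2 difference 0.84 ± 0.21). No sp gene was listed. Among BTB genes, zbtb10 (ENSDARG00000077101) stood at 1.40, 1.37 and 1.53 FPKM in mutant cells against 0.889 and 0.347 FPKM in wild type cells (0.61 ± 0.19). The gene zbtb39 (ENSDARG00000019265) stood at 1.54, 1.34 and 1.79 FPKM in mutant cells against 0.828 and 1.09 FPKM in wild type cells (0.38 ± 0.12). Both BTB genes are weakly expressed, both lie below the median difference of all listed genes, and the wild type values of zbtb10 lie far apart. The call for zbtb10 is lost with a pseudocount of 0.1, and its difference is 0.36 without wild type replicate 3. The call for zbtb39 is lost with a pseudocount of 5. By limma its unadjusted p was 0.123 without wild type replicate 2, a fit with 1 wild type library. It was 0.0608 by limma without mutant replicate 3.

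The most abundant member was zfp36l1a (ENSDARG00000016154), whose mammalian counterpart binds AU-rich stretches of mRNA and brings on their decay. It stood at 80.2, 108.8 and 97.9 FPKM in prdm3 mutant cells against 55.5 and 54.8 FPKM in wild type cells (1.73-fold, log2 difference 0.77 ± 0.16). The gene zfpl1 (ENSDARG00000103453), named for a zinc finger but known in mammals as a Golgi membrane protein, stood at 2.75, 3.15 and 4.11 FPKM in mutant cells against 0.683 and 1.1003 FPKM in wild type cells. Its ratio of 3.74 is among the highest of the members, at a low level (log2 difference 1.19 ± 0.21).

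Of 32 listed znf genes, 31 were higher and 1 lower in prdm3 mutants, and 12 of the 31 lie below the median difference of all listed genes. The pair znf609a and znf609b, whose mammalian counterpart works with the cohesin loader, was listed together. The gene znf609a (ENSDARG00000103388) stood at 18.2, 18.9 and 17.3 FPKM in mutant cells against 10.7 and 10.9 FPKM in wild type cells (0.69 ± 0.04). Its partner znf609b stood at 31.7, 29.7 and 31.1 FPKM in mutant cells against 22.5 and 20.6 FPKM in wild type cells (0.50 ± 0.06). The libraries of each group lie close together in both genes, and znf609a was named for its small p, which favours this. The other pair listed together was znf281a and znf281b, whose human counterpart binds GC-rich promoters. The gene znf281a stood at 15.7, 16.2 and 12.4 FPKM in mutant cells against 7.92 and 8.52 FPKM in wild type cells (0.77 ± 0.15). Its partner znf281b stood at 9.15, 11.2 and 10.1 FPKM in mutant cells against 4.51 and 5.84 FPKM in wild type cells (0.85 ± 0.15). Both pairs were singled out by name after their values were seen.

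Among znf genes with the largest differences, znf292a (ENSDARG00000016763) stood at 11.5, 17.6 and 16.7 FPKM in prdm3 mutant cells against 7.08 and 6.20 FPKM in wild type cells (1.07 ± 0.24). The gene znf280d (ENSDARG00000077013) stood at 4.72, 7.72 and 5.97 FPKM in mutant cells against 2.32 and 2.88 FPKM in wild type cells (0.97 ± 0.24). Their mutant means stood 2.301-fold and 2.36-fold above wild type, and the mutant libraries of both spread widely. Members with known protein partners were also listed, and were singled out after their values were seen. The gene znf516, whose mouse counterpart binds PRDM16 in brown fat, stood at 12.2, 14.0 and 17.2 FPKM in mutant cells against 7.60 and 7.22 FPKM in wild type cells (0.86 ± 0.18). The gene znf217, whose human counterpart sits in the CtBP corepressor complex, stood at 9.16, 7.95 and 8.15 FPKM in mutant cells against 5.60 and 6.54 FPKM in wild type cells (0.42 ± 0.10). The gene znf207a, whose human counterpart is a spindle protein, stood at 7.33, 7.23 and 6.79 FPKM in mutant cells against 4.37 and 4.76 FPKM in wild type cells (0.54 ± 0.05). The 22 members outside the naming rule ranged from 1.23-fold (znf618) to 3.18-fold (znf1119) above wild type, at wild type means of 0.355 to 21.6 FPKM.

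The znf genes numbered 900 or higher, a split made after seeing the data, include the extremes. There were 8, with a median wild type mean of 1.09 FPKM, against 6.35 FPKM for the 24 other znf genes. The 7 higher ones had a median ratio of 2.95, against 1.68 for the others. No gene listed for prdm3 mutants had a higher group mean below 0.996 FPKM. A gene well below that level in wild type cells could thus be listed as higher only at a large ratio. The part of these low levels in the larger ratios was not tested. The gene znf1161 (ENSDARG00000074125) stood at 4.18, 4.22 and 4.73 FPKM in prdm3 mutant cells against 1.45 and 1.52 FPKM in wild type cells (1.11 ± 0.06). The gene znf1169 (ENSDARG00000112141) had the largest log2 difference with all libraries, 1.34 ± 0.40, with 3.43, 5.02 and 3.36 FPKM in mutant cells against 1.67 and 0.385 FPKM in wild type cells. Its wild type libraries lie far apart, with replicate 3 well below replicate 2, and its call is lost with a pseudocount of 0.1. Its difference is 0.87 without wild type replicate 3, below that of zfpl1 (1.35) and znf1161 (1.13) in the same fit, and 1.82 without wild type replicate 2. The genes znf1001 (2.16, 2.07 and 2.62 FPKM in mutant cells against 0.869 and 0.366 FPKM in wild type cells) and znf1158 (3.79, 2.88 and 3.14 against 1.43 and 1.01) were higher too. In the other direction znf999 (ENSDARG00000101137) stood at 0.109, 0.0370 and 0.137 FPKM in mutant cells against 1.17 and 1.16 FPKM in wild type cells. Its log2 difference of -0.98 ± 0.05 came with the smallest p of all 42 members in the authors' deposited table (p = 0.000309 and q = 0.238 there).

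**Figure D2:**
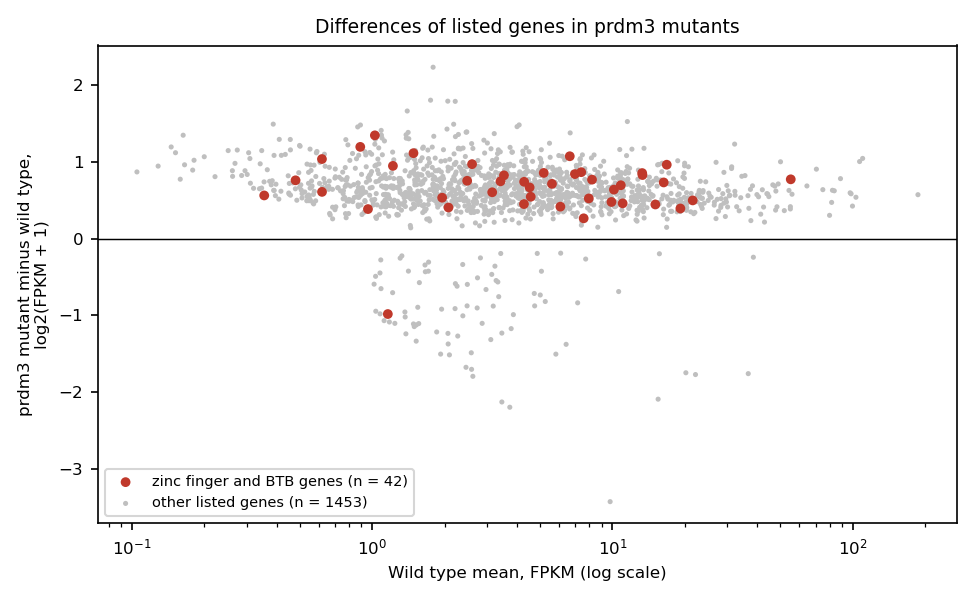
Difference of prdm3 mutant minus wild type cells on log2(FPKM + 1) against the wild type mean in FPKM (log scale) for listed genes with a wild type mean of 0.1 to 200 FPKM. The 42 zinc finger and BTB genes (red) lie within the cloud of the 1453 other listed genes shown (grey), with znf999 alone below 0, and 25 of the 42 above the median of all listed genes.

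The libraries did not contribute evenly. Mutant replicate 2 was the highest of the 3 mutants for 20 of the 42 members, replicate 3 for 16 and replicate 1 for 6, beside 41.9%, 35.2% and 22.1% of all listed genes. Replicate 2 is also the prdm3 mutant described as cleaned, a step left undefined in the labels. Without it limma called 41 of the 42 (97.6%), beside 94.1% of all listed genes. Without wild type replicate 3, the wild type named for prdm16, it called 37 (88.1%), beside 83.9% of all listed genes, from a fit with 1 wild type library.

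In prdm16 mutant cells all 66 listed members were lower than in wild type cells, at q below 0.05 in the authors' deposited table. They include 7 Krüppel-like and Sp genes, 4 zic genes, 10 BTB genes and 39 znf genes. Of the 66, 58 were listed at 0 in both mutant libraries, 6 at 0 in 1 of them, and 2 were above 0 in both. Of all 2990 listed genes 84.9% were at 0 in both mutant libraries, and the members' 87.9% is close to that share. Genes both listed and at 0 in both libraries made up 23.9% of all genes tested. Values of unlisted genes were not held, so zeros among them are not counted. A listed 0 in these files can be a failed estimate, so library values are given and no fold for such genes. Where both mutants are at 0, the spread behind the authors' p comes from the wild type libraries alone. Such a p, and the q made from it, does not show whether the 0 is real. No member was higher, beside 2.61% of all listed genes. The median log2(FPKM + 1) difference was -1.88, beside -1.98 over all listed genes, and with the mutants at 0 it mostly restates the wild type level. Against that median of all listed genes, 36 of the 66 lie on the higher side and 30 on the lower. Wild type means of the members ran from 0.997 to 13.1 FPKM, so none was abundant. The lower end is close to 0.995 FPKM, the lowest higher group mean of all genes listed for prdm16 mutants.

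**Figure D3:**
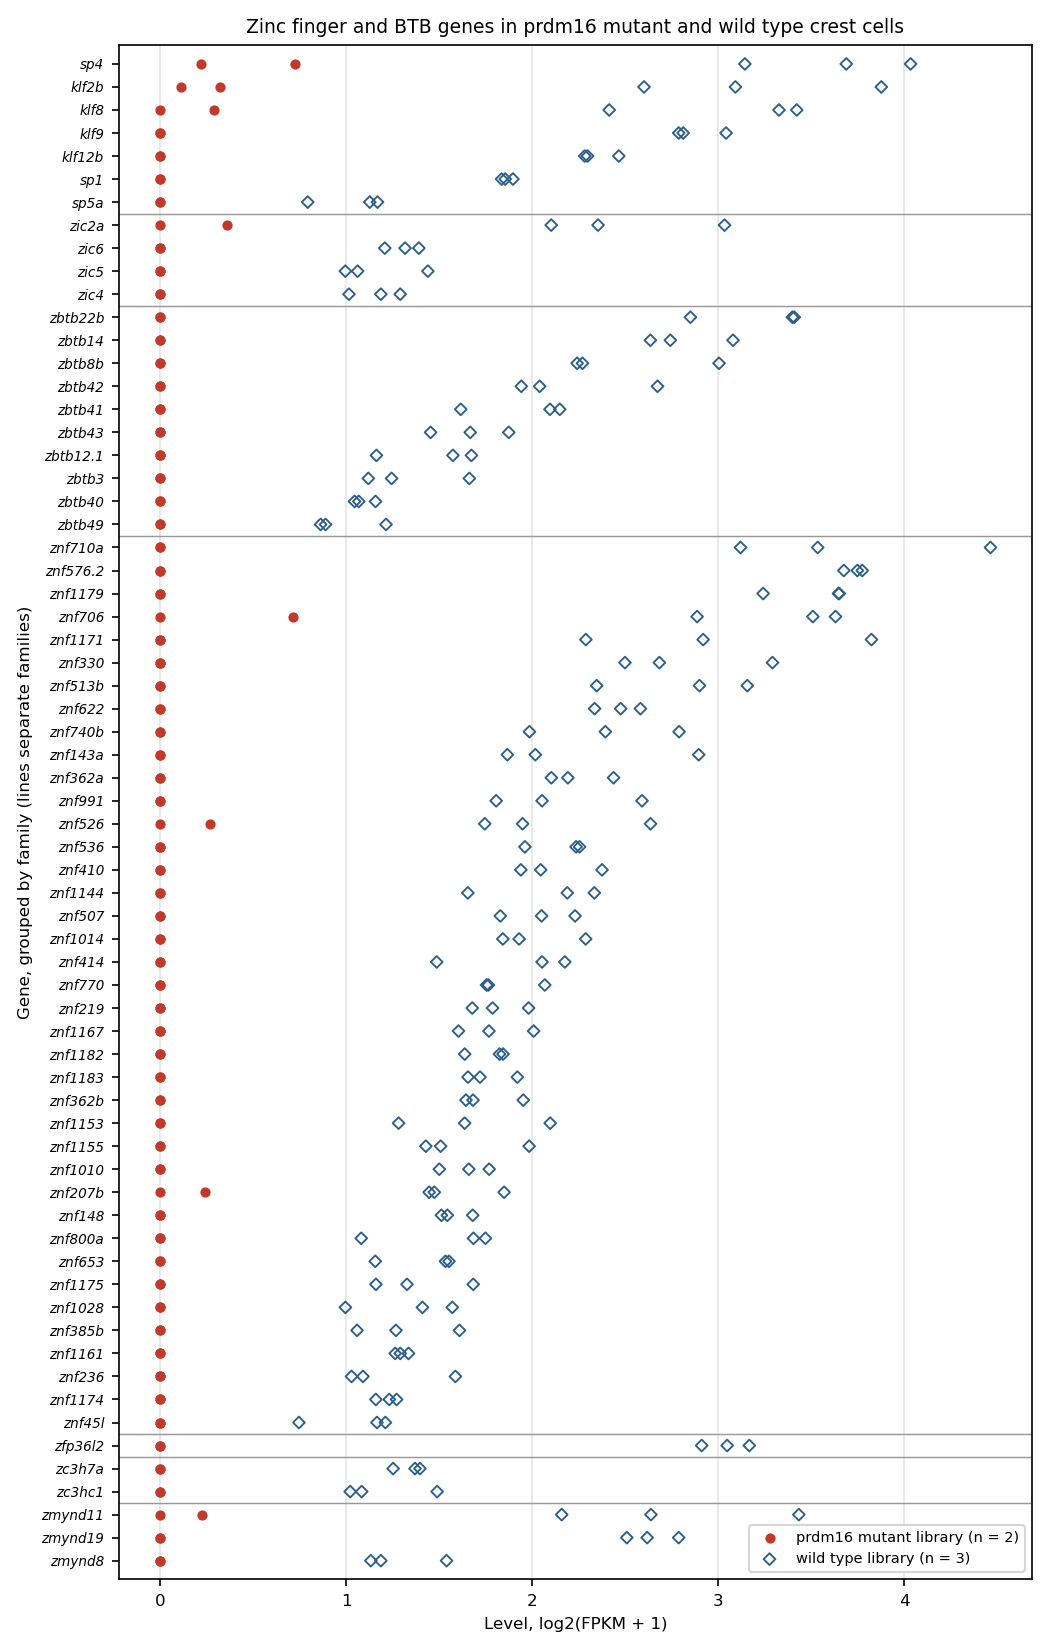
Level on log2(FPKM + 1) of the 66 zinc finger and BTB genes listed for prdm16 mutants, in each of 2 mutant (filled circles, overlapping at 0) and 3 wild type libraries (open diamonds). Every mutant circle lies left of the wild type diamonds and 58 genes have both mutant libraries at 0, while 36 of the 66 differ by less than the median of all listed genes.

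Sp and Krüppel-like factors bind GC-rich and CACCC boxes in promoters, and Sp1 is active in nearly all cells. The gene sp1 (ENSDARG00000088347) was listed at 0 in both prdm16 mutant libraries and at 2.72, 2.62 and 2.57 FPKM in wild type cells (q = 0.00156 as deposited by the authors in their table). The gene sp4 (ENSDARG00000005186) stood at 0.655 and 0.162 FPKM in mutant cells against 7.84, 11.9 and 15.4 FPKM in wild type cells (log2 difference -3.15 ± 0.39, q = 0.0226 in the authors' deposited table). The gene klf2b (ENSDARG00000040432), whose mammalian counterpart responds to blood flow in endothelium, stood at 0.0808 and 0.251 FPKM in mutant cells against 13.7, 7.54 and 5.07 FPKM in wild type cells (-2.97 ± 0.49, q = 0.0366 in the authors' deposited table). These are the 2 members above 0 in every library, and their groups lie far apart. The call for klf2b, a gene with widely spread wild type values, is lost with a pseudocount of 5, as are those for zic5, zc3hc1 and zmynd11. Their p by a pooled-variance comparison was then 0.0163 to 0.0374, still below 0.05. The largest p among genes listed for prdm16 mutants was 0.0141 in the authors' deposited table.

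The repressor gene klf12b (ENSDARG00000032197) was listed at 0 in both prdm16 mutant libraries and at 3.87, 4.53 and 3.92 FPKM in wild type cells. The hormone-responsive gene klf9 (ENSDARG00000068194) was listed at 0 in both mutant libraries and at 6.03, 5.91 and 7.24 FPKM in wild type cells. The wild type libraries lie close together in both, which naming by the smallest p favours where both mutants are at 0. The remaining 2 of this family are klf8, at 0.220 and 0 FPKM in mutant cells against 9.73, 4.33 and 9.04 FPKM in wild type cells, and sp5a. The gene sp5a, a known target of Wnt signalling, was listed at 0 in both mutant libraries and at 1.18, 0.733 and 1.25 FPKM in wild type cells. Those 2 were singled out after their values were seen.

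Zic genes act in the dorsal neural tube and the neural crest that leaves it. The genes zic4, zic5 and zic6 were listed at 0 in both prdm16 mutant libraries, at low wild type levels. These were 1.28, 1.45 and 1.02 FPKM for zic4 (ENSDARG00000031307) and 1.31, 1.49 and 1.62 FPKM for zic6 (ENSDARG00000071496). For zic5 (ENSDARG00000016022) the wild type libraries held 1.09, 1.71 and 0.994 FPKM. The gene zic2a, singled out after its values were seen, stood at 0 and 0.281 FPKM in mutant cells against 7.20, 4.11 and 3.30 FPKM in wild type cells. No gata, ikzf or egr gene was listed in either table. A gene named bcl11bb by symbol only, outside the members, was listed at 0 in both mutant libraries and at 1.83, 1.65 and 1.45 FPKM in wild type cells.

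All 10 BTB genes among the members, beside 84.9% of all listed genes, were at 0 in both prdm16 mutant libraries. Their wild type means ran from 0.997 FPKM (zbtb49) to 8.47 FPKM (zbtb22b). The gene zbtb22b (ENSDARG00000003251) was at 9.63, 9.56 and 6.22 FPKM in wild type cells, and zbtb14 (ENSDARG00000098273) at 5.70, 5.22 and 7.46 FPKM. The gene zbtb40 (ENSDARG00000091762) had the smallest p of the family, with 1.096, 1.23 and 1.06 FPKM in wild type cells. In the authors' deposited table its q was 0.00598. The other BTB members were zbtb43, zbtb41, zbtb8b, zbtb42, zbtb12.1 and zbtb3. Outside the members, since its name is in capitals, ZBTB26 was at 0 in both mutant libraries too. In wild type cells it was at 1.63, 1.19 and 1.57 FPKM. None of the 10 was among the 2 BTB genes listed for prdm3 mutants.

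Of the 39 listed znf genes, 36 were at 0 in both prdm16 mutant libraries, beside 84.9% of all listed genes. The smallest p of all 66 members was that of znf576.2 (ENSDARG00000078164), listed at 0 in both mutant libraries and at 12.7, 11.8 and 12.4 FPKM in wild type cells (q = 0.00134 in the authors' deposited table). The gene znf1174 (ENSDARG00000100361) was at 1.35, 1.23 and 1.41 FPKM in wild type cells and at 0 in both mutant libraries. Both have wild type libraries that lie within a narrow range, which naming by the smallest p favours where both mutants are at 0. The highest wild type mean was that of znf710a, at 21.1, 10.6 and 7.70 FPKM in wild type cells, a spread as wide as its middle value. All 15 znf genes numbered 900 or higher were at 0 in both mutant libraries, again beside 84.9% of all listed genes.

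Several znf genes with a known role elsewhere were at 0 in both prdm16 mutant libraries, and were singled out after their values were seen. The gene znf219, whose mouse counterpart works with Sox9 in cartilage cells, was at 2.95, 2.20 and 2.45 FPKM in wild type cells. The gene znf410, whose human counterpart acts on the gene of the remodeler CHD4, was at 2.84, 3.13 and 4.19 FPKM in wild type cells. The promoter factor gene znf143a was at 6.44, 2.65 and 3.05 FPKM in wild type cells. The first wild type library stands well above the others for znf143a. Above 0 in 1 mutant library were znf706 (0 and 0.640 FPKM in mutant cells against 6.40, 11.4 and 10.4 FPKM in wild type cells), znf526 and znf207b.

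By symbol, 1 of 9 genes with zfp names, 3 of 16 with zc3h names and 3 of 9 with zmy names were listed for prdm16 mutants, all lower. The others missed the threshold or were not tested. These are groups by name, so not every gene in them is of the mRNA- or protein-binding type described above. The counts stand beside 9.97% of all gene IDs and 15.0% of those that match the rule by symbol. Of all genes listed for prdm16 mutants 97.4% were lower, so the direction is that of most listed genes. The mRNA decay gene zfp36l2 (ENSDARG00000021806) was listed at 0 in both mutant libraries and at 7.28, 7.99 and 6.53 FPKM in wild type cells (q = 0.00465 in the authors' deposited table). The genes zc3h7a (ENSDARG00000102195; 1.63, 1.38 and 1.59 FPKM in wild type cells) and zc3hc1 (ENSDARG00000062651; 1.81, 1.12 and 1.03 FPKM in wild type cells) were at 0 in both mutant libraries. So were zmynd19 (ENSDARG00000100773; 5.91, 4.69 and 5.14 FPKM in wild type cells) and the chromatin reader gene zmynd8 (ENSDARG00000007601; 1.19, 1.28 and 1.91 FPKM in wild type cells). The gene zmynd11 (ENSDARG00000057249), whose human counterpart reads methylated histone tails, stood at 0.170 and 0 FPKM in mutant cells against 9.81, 5.23 and 3.47 FPKM in wild type cells. Of the 44 members outside the naming rule, 39 were at 0 in both mutant libraries, beside 84.9% of all listed genes. The highest mutant value among the 44 was 0.640 FPKM.

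Wild type replicate 1 was the highest of the 3 wild types for 32 of the 66 members, replicate 3 for 23 and replicate 2 for 11, beside 50.9%, 24.3% and 24.8% of all listed genes. The word cleaned stands in the labels of both prdm16 mutant libraries and of wild type replicate 1. Mutant and wild type libraries do not overlap for any of the 66, as for all 2990 listed genes. Limma on the listed genes called all 66, beside 100% of the 2990, so its count says nothing particular to the members.

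Among members, only znf507, znf622 and znf1161 were listed for both mutants, 7.14% of the prdm3 members and 4.55% of the prdm16 members. Of all genes, 22.3% of those in the prdm3 table and 11.3% of those in the prdm16 table were in both, and the tables share wild type libraries. The gene znf507 (ENSDARG00000052164) stood at 6.54, 6.35 and 6.29 FPKM in prdm3 mutant cells and at 0 in both prdm16 mutant libraries, against 2.55, 3.70 and 3.14 FPKM in wild type cells. The gene znf622 (ENSDARG00000014692), whose yeast counterpart helps ripen the large ribosomal subunit, stood at 7.80, 8.47 and 6.97 FPKM in prdm3 mutant cells and at 0 in both prdm16 mutant libraries. Wild type cells held 4.56, 4.05 and 4.99 FPKM of it. The gene znf1161 stood at 4.18, 4.22 and 4.73 FPKM in prdm3 mutant cells and at 0 in both prdm16 mutant libraries, against 1.40, 1.45 and 1.52 FPKM in wild type cells. All 3 were above every wild type library in prdm3 mutants and below every one in prdm16 mutants, as were 293 of the 339 genes in both tables by their mean. A gene named ZNF276 by symbol only, outside the members, was listed for both mutants too and was singled out after its values were seen. It stood at 4.47, 5.73 and 5.42 FPKM in prdm3 mutant cells and at 0 in both prdm16 mutant libraries. Its wild type values were 3.89, 3.13 and 3.38 FPKM. A difference between the mutants was not tested.

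**Figure D4:**
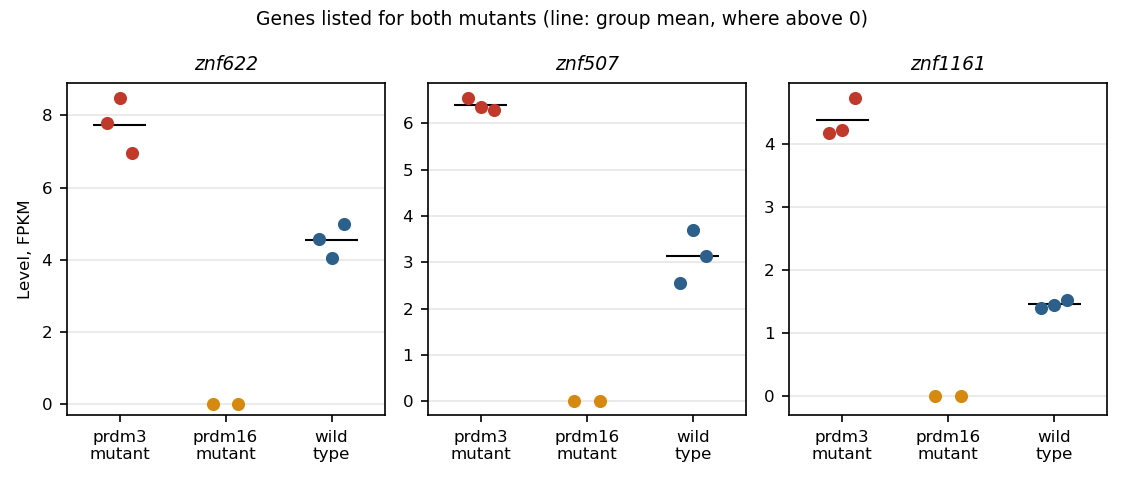
Level in FPKM of znf622, znf507 and znf1161 in each prdm3 mutant (n = 3), prdm16 mutant (n = 2) and wild type library (n = 3), with a line at the mean of groups above 0. The prdm3 mutants lie above the wild type libraries and the prdm16 mutants are listed at 0.

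Of 5 gene pairs that share a name up to their last letter, znf281 and znf609 had both copies in the prdm3 table, znf362 had both in the prdm16 table, and znf207 and znf740 had a copy in each. The pair znf362a and znf362b was listed for prdm16 mutants, with both genes at 0 in both mutant libraries. In wild type cells znf362a was at 3.30, 4.42 and 3.57 FPKM and znf362b at 2.13, 2.21 and 2.87 FPKM. For znf207 and znf740 the a copy was listed higher in prdm3 mutants and the b copy lower in prdm16 mutants. The gene znf740a stood at 6.45, 8.43 and 8.74 FPKM in prdm3 mutant cells against 3.94 and 4.63 FPKM in wild type cells. The gene znf740b was at 0 in both prdm16 mutant libraries against 5.92, 4.26 and 2.96 FPKM in wild type cells. The gene znf207b stood at 0.182 and 0 FPKM in prdm16 mutant cells against 2.60, 1.72 and 1.78 FPKM in wild type cells. The copy that is missing from a table missed its threshold or was not tested, so the copies are not shown to differ.

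Other zinc finger genes and partners of these factors were looked up in lists. How many of each list were tested is not known, and the counts are to be read against 12.7% of tested genes higher in prdm3 mutants and 27.4% lower in prdm16 mutants, or 5.09% and 9.97% of all gene IDs listed. Of 34 crest and skeletal zinc finger genes, 2 were higher in prdm3 mutants (plagl2 and gli2b) and 3 lower in prdm16 mutants (hivep3a, glis1b and plag1). The 34 include zfpm1, zfpm2a and zfpm2b, whose names match the rule for members but which were not listed for either mutant. The gene plagl2 stood at 10.95, 11.6 and 12.7 FPKM in prdm3 mutant cells against 6.24 and 7.91 FPKM in wild type cells. The hedgehog effector gene gli2b stood at 12.6, 10.02 and 11.7 FPKM in prdm3 mutant cells against 7.73 and 7.995 FPKM in wild type cells. The groups do not overlap in either gene, as in all 1520 genes listed for prdm3 mutants. The gene hivep3a was listed at 0 in both prdm16 mutant libraries and at 1.08, 0.922 and 1.17 FPKM in wild type cells. The gene glis1b was listed at 0 in both prdm16 mutant libraries and at 2.53, 3.05 and 4.44 FPKM in wild type cells. Of 24 general zinc finger genes, 4 were higher in prdm3 mutants and 3 lower in prdm16 mutants. The PRDM family gene prdm2b stood at 11.6, 12.1 and 12.6 FPKM in prdm3 mutant cells against 7.27 and 7.85 FPKM in wild type cells. The gene vezf1a stood at 13.7, 15.8 and 13.01 FPKM in prdm3 mutant cells against 7.91 and 9.92 FPKM in wild type cells. In both genes every mutant library lies above both wild type libraries, as in every gene listed as higher in prdm3 mutants. Another PRDM family gene, prdm4, was in both sets, at 3.03, 3.81 and 3.43 FPKM in prdm3 mutant cells and at 0 in both prdm16 mutant libraries. Its wild type values were 2.20, 2.53 and 1.94 FPKM. The transcription factor IIIA gene gtf3aa was in both sets too, at 3.89, 3.95 and 2.12 FPKM in prdm3 mutant cells and at 0 in both prdm16 mutant libraries, against 1.48, 1.04 and 0.830 FPKM in wild type cells.

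Corepressors were listed in both tables. Of 16 BTB partners and corepressors, 5 were higher in prdm3 mutants, with a median log2 difference of 0.45. Lower in prdm16 mutants were 4, all at 0 in both libraries, beside 84.9% of all genes listed for prdm16 mutants. The scaffold gene sin3aa stood at 12.9, 13.6 and 12.4 FPKM in prdm3 mutant cells against 9.96 and 9.35 FPKM in wild type cells. The BCL6 corepressor gene bcor stood at 25.01, 28.8 and 28.02 FPKM in prdm3 mutant cells against 19.3 and 20.2 FPKM in wild type cells. Mutant libraries of both genes lie in a narrow band above wild type, which choice by the smallest p favours. The corepressor subunit gene tbl1x was in both sets, at 5.89, 5.004 and 3.99 FPKM in prdm3 mutant cells and at 0 in both prdm16 mutant libraries. Its wild type values were 3.85, 2.99 and 2.88 FPKM. Its relative tbl1xr1a was at 0 in both prdm16 mutant libraries and at 19.7, 11.3 and 10.7 FPKM in wild type cells. Of 24 NuRD and CtBP-LSD1 genes, which code for the deacetylase and demethylase complexes that spalt, zeb and PRDM proteins bind, 5 were higher in prdm3 mutants (median 0.57) and 5 lower in prdm16 mutants. The NuRD gene mta2 stood at 63.1, 70.2 and 65.4 FPKM in prdm3 mutant cells against 47.1 and 40.7 FPKM in wild type cells. The NuRD remodeler gene chd4b stood at 11.3, 12.3 and 14.3 FPKM in prdm3 mutant cells against 8.21 and 7.59 FPKM in wild type cells. For both, the lowest mutant library lies above the highest wild type library, as for every gene listed as higher in prdm3 mutants. Another NuRD gene, mta1, stood at 0.133 and 0 FPKM in prdm16 mutant cells against 11.8, 9.17 and 11.5 FPKM in wild type cells. Listed at 0 in both prdm16 mutant libraries was ctbp2a, against 26.0, 17.9 and 11.1 FPKM in wild type cells.

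Of 21 mRNA decay partners of the RNA-binding finger proteins, 6 were higher in prdm3 mutants (median 0.52) and 7 lower in prdm16 mutants, 4 of these at 0 in both libraries. The deadenylase gene pan2 stood at 1.59, 1.45 and 1.505 FPKM in prdm3 mutant cells against 0.786 and 0.728 FPKM in wild type cells. The decapping gene dcp1b stood at 2.91, 3.23 and 3.44 FPKM in prdm3 mutant cells against 2.15 and 1.89 FPKM in wild type cells. The CCR4-NOT gene cnot8 was in both sets, at 7.64, 8.63 and 10.99 FPKM in prdm3 mutant cells and at 0 in both prdm16 mutant libraries, against 3.45, 4.19 and 4.72 FPKM in wild type cells. The mutant groups of cnot8 lie on opposite sides of wild type. The gene cnot4a was listed at 0 in both prdm16 mutant libraries and at 6.41, 5.38 and 5.11 FPKM in wild type cells. All list medians for prdm3 mutants named here are below the 0.62 of all listed genes.

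Of 54 markers of other cell types, 7 were listed for prdm3 mutants (4 higher and 3 lower) and 1, lower, for prdm16 mutants. Of all genes tested, 13.5% and 28.1% were listed, and how many of the markers were tested is not known. Counts of sorted crest markers stand beside 12.7% of genes tested higher in prdm3 mutants and 27.4% lower in prdm16 mutants. No marker listed for prdm3 mutants passed q below 0.05 in the authors' deposited table (q of 0.278 to 0.356). The part of these markers in the members' differences was not tested. Of 19 sorted crest markers, 3 were higher in prdm3 mutants (hand2, prrx1a and twist3, together 66.3 to 70.5 FPKM in mutant libraries against 42.0 and 46.8 FPKM in wild type libraries). The 2 listed of 7 pigment markers (tyrp1b and dct) summed to 24.7 to 32.9 FPKM in mutant libraries against 6.53 and 14.8 FPKM in wild type libraries. Of 5 otic markers, oc90 was at 0.877 to 1.42 FPKM in mutant libraries against 0.268 and 0.425 FPKM, and of 6 epidermal markers krt91 was at 4.62 to 6.40 FPKM against 1.55 and 2.41 FPKM. Lower were 1 of 7 muscle markers (tnnt3a, 0 to 0.591 FPKM in mutant libraries against 1.27 and 1.47 FPKM) and 2 of 4 lens markers (0 to 0.705 FPKM in sum against 3.24 and 4.17 FPKM). In prdm16 mutants 3 of the 19 sorted crest markers were lower (foxd3, tfap2b and barx1, together 0 to 2.01 FPKM against 20.5 to 24.7 FPKM), and of the 7 blood markers hbbe1.1 was at 0 against 19.3 to 24.0 FPKM. None of the 6 glial, 7 neuronal and 5 endothelial markers looked up was listed in either table. Other genes of these cell types were not looked up here.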

How the data were processed

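Total RNA of sorted cells was made into libraries with a Clonetech Pico kit, per the labels' protocols. For each mutant the authors deposited a table of library values. These are read as FPKM, since the submitters' processing notes name TopHat2 2.1.1 and Cufflinks. The authors' deposited p-value and q-value come from a test that is not named. Every deposited p (1520 and 2990 genes) was met to within 1% by a pooled-variance two-sided comparison of log2(FPKM + 1), and the numbers tested were recovered from the relation of p and q. The authors' deposited fold change, a signed score, was not used. The build is danRer11, per the submitters' processing notes, and the annotation used for names was of another build. ATAC peaks were therefore not tied to these genes, and the planned count of peaks at start sites was not made.

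Columns were matched to samples by label, with 0 columns unused. Differences and pooled standard errors are on log2(FPKM + 1), which understates changes of low genes. The alternatives used limma 3.58.1 in R 4.3.3 and Python 3.11.15 on the listed rows, tested on simulated data. Since unlisted genes were not held, no fit across all genes was possible and the authors' own calls are the main ones. The members and lists were chosen with earlier results of these data known. Named members are those in both tables, the 8 largest differences per direction among members above 0 in every library, and the 3 smallest p in each name family, which gave 20 for prdm3 and 22 for prdm16. From each of the 5 gene lists, up to 2 genes with the smallest p per table are given with values. Gene lists cover other crest and skeletal zinc finger factors, general zinc finger factors, BTB partners, NuRD and CtBP-LSD1, and mRNA decay. Marker lists cover sorted crest and 9 other cell types (muscle, lens, blood, endothelium, pigment, otic vesicle, epidermis, neurons and glia). FPKM values carry no read totals, so depth and the precision it gives are unknown.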

Additional observations from a re-analysis of the deposited data

Results flagged for a closer look

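The 3 members listed for both mutants stood above wild type in prdm3 mutants and below it in prdm16 mutants. So did 293 of the 339 genes listed for both, by their mean. The comparisons share wild type libraries, and the difference between the mutants was not tested. On log2(FPKM + 1), prdm3 mutants exceeded wild type by 0.67 for znf622, 0.74 for znf507 and 1.11 for znf1161, in 3 of 3 mutant libraries. Mutant and wild type libraries overlap in none of the 1520 genes listed for prdm3 mutants, so this is not particular to the 3. Both prdm16 mutant libraries were listed at 0 for each of the 3, as for 84.9% of all genes listed for prdm16 mutants.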

How the results depend on the processing

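For prdm3 mutants the count of 42 listed members stayed between 37 and 41 with limma when any 1 library was left out (83.9% to 95.4% of all listed genes), was 41 with all libraries and 29 among genes with a mean of 5 FPKM or more. It was 0 at the authors' q below 0.05. Their median difference of 0.72 was 0.66 to 0.73 without any 1 library and 0.43 with a pseudocount of 5. For prdm16 mutants the count of 66 did not change with limma or when any 1 library was left out (66 each, beside 99.8% to 100% of all listed genes). The genes were selected on the same values, and leaving out a prdm16 mutant, or a wild type for prdm3, leaves 1 library that is assumed to vary like the other group. It was 21 at q below 0.01, 16 among genes with a mean of 5 FPKM or more, 8 once genes with a whole group at 0 were dropped and, chosen after seeing the data, 2 without genes at 0 in any library. The last 3 settings take genes out by construction. Their median difference of -1.88 was -1.89 to -1.83 without any 1 library, -4.69 and -0.63 with pseudocounts of 0.1 and 5, and -2.98 at a mean of 5 FPKM or more. Centring on all listed genes, also chosen after seeing the data, split the 42 into 25 and 17 and the 66 into 36 and 30. Counting genes that match by symbol too, names in capitals among them, gave 46 and 74. The title numbers share no stated source and mostly differ from the numbers that open the column labels. The deviations of libraries with the same title number correlated at -0.05 and -0.04 over 1487 genes for prdm3. For prdm16 they correlated at 0.01 and -0.11 over only 128 of the 2990 listed genes. Those are the numbers of listed genes above 0 in every library, with 2 of the 66 members among them for prdm16. With the title number as a replicate block limma called 39 of the 42 members (median 0.73) and all 66 (median -1.88). Of all listed genes it called 93.1% and 99.9%. A pairing by the numbers in the column labels was not tested, so these values do not show whether pairing matters. Other peak thresholds and overlaps were not run, since no ATAC count was made. Of the alternatives run for named members, 154 of prdm3 and 172 of prdm16 kept the call and 6 and 4 lost it, with 0 reversed, and the cause was not tested. Read depth is unknown, so no limit of detection is given for values at 0.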
